A study of Mus musculus with 4 samples.

Results

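The Rhox genes are a family of homeobox genes, named for reproductive homeobox on the X chromosome, that lie side by side in 1 cluster on the mouse X chromosome. They were measured here as the probes whose gene name in the scanner files begins with Rhox, which gave 27 probes for 22 gene names out of 55681 probes and 36163 gene names on the array. The samples were mouse embryonic stem cells of the line E14Tg2A (a 129/Ola line) in 4 groups with 1 array each. ES were untreated cells at 0 days in culture with serum and LIF. ELA were untreated epiblast-like aggregates after 2 days in minimal medium, a state that stands for the primed epiblast. AZA were such aggregates with 50 nM 5-azacytidine, a cytidine analogue that is built into DNA and traps DNA methyltransferases. CHQ were aggregates with 100 µM 5-carboxy-8-hydroxyquinoline, used in the study against histone lysine demethylases. All 4 arrays came from this 1 cell line, and each held pooled RNA of 3 experiments, so no group had a replicate array, no test between groups was possible and the differences below describe these pools.

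Rhox proteins are transcription factors with a homeodomain, best known from the testis, epididymis, ovary and placenta. The cluster is a textbook case of silencing by DNA methylation: its genes are methylated in the embryo proper around implantation, while the extraembryonic lineages keep some of them active. The cluster is commonly divided into an alpha subcluster (Rhox1 to Rhox4, where Rhox2, Rhox3 and Rhox4 were each multiplied into several near-identical copies), a beta subcluster (Rhox5 to Rhox9) and a gamma subcluster (Rhox10 to Rhox13). The array held 16 alpha, 7 beta and 4 gamma probes. The question the groups put to this family is whether its RNA was lower in primed cells than in ES cells. A further question is whether its RNA was higher after a drug aimed at DNA methylation than after a drug aimed at histone demethylation. In the study CHQ also blocked methylation of the Nanog promoter, so a contrast of CHQ with AZA may not separate these processes.

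The probes are single oligonucleotides of 60 bases, and several read more than 1 gene copy. By the annotation in the files, 8 of the 27 probes match more than 1 RefSeq Rhox gene. The sequences of the probes that the results turn on are shown so that their differences can be read directly. In the first 2 probes the CG dinucleotides are in capitals. The probe named Rhox2c (chrX:34868719-34868778, mouse build mm9 as in the files) is annotated to Rhox2a, Rhox2b, Rhox2c and Rhox2e, and the Rhox2h probe shown (chrX:35087692-35087751) only to Rhox2h.
Rhox2c: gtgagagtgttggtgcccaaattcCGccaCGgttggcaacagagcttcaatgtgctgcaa
Rhox2h: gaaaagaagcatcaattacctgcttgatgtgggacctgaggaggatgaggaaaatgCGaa
The probes named Rhox4a (chrX:34809907-34809966) and Rhox4g (chrX:35061172-35061231) differ at 2 of 60 positions, in capitals below, so each may bind transcripts of the other copy, and the second is annotated to Rhox4b, Rhox4e, Rhox4f and Rhox4g.
Rhox4a: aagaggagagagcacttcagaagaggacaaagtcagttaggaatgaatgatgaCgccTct
Rhox4g: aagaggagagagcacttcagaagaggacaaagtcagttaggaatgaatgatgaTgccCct
Of the 2 Rhox8 probes, the one at chrX:35231462-35231521 is mostly a run of 14 GAA triplets, in capitals.
Rhox8: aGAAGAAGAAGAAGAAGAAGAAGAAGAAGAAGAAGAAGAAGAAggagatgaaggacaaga
The probes of Rhox9 (chrX:35254147-35254206) and Rhox13 (chrX:35474985-35476295, across an intron) are annotated to 1 gene each and are shown with CG in capitals, as examples from the beta and gamma subclusters.
Rhox9: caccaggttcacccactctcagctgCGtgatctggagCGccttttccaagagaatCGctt
Rhox13: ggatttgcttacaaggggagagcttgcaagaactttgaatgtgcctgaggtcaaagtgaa

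Values are log2 intensities after background correction and quantile normalisation of the 4 arrays. A probe was called higher or lower in a pair of arrays when the difference was at least 1 on the log2 scale, and it was callable when the mean of the pair was at least 7.5 and the scanner software had marked the spot as well above background in at least 1 of the pair. The only error that the data give is that of repeated spots on 1 array: the pooled SD over 432 repeatedly spotted probes was 0.147, which corresponds to 0.208 for a difference between arrays, and it leaves out all variation between cultures. Each Rhox probe is a single spot. On the 4 arrays 60.6%, 55.1%, 69.1% and 69.2% of gene spots (ES, ELA, AZA, CHQ) were well above background, and the median local background was 59, 77, 14 and 13 units. ES and ELA lay on slide 1, AZA and CHQ on slide 2. A drug effect against ELA and a slide effect therefore cannot be told apart, while ELA against ES and CHQ against AZA are comparisons within a slide.

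Of the 27 probes, 15 were well above background on all 4 arrays, 5 on 1 to 3 arrays and 7 on none. The 7 dim probes were those of Rhox11, Rhox12, Rhox3-ps, Rhox3b and Rhox3g-ps, with 1 of 2 Rhox7 and 1 of 3 Rhox3f probes, and their values lay between 5.84 and 6.36 on every array. Thus 17 of 22 gene names had a probe above background somewhere. The count of Rhox probes above background was 19 on ES, 15 on ELA, 19 on AZA and 20 on CHQ. ELA was also the array with the fewest probes above background in all.

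**Figure D1:**
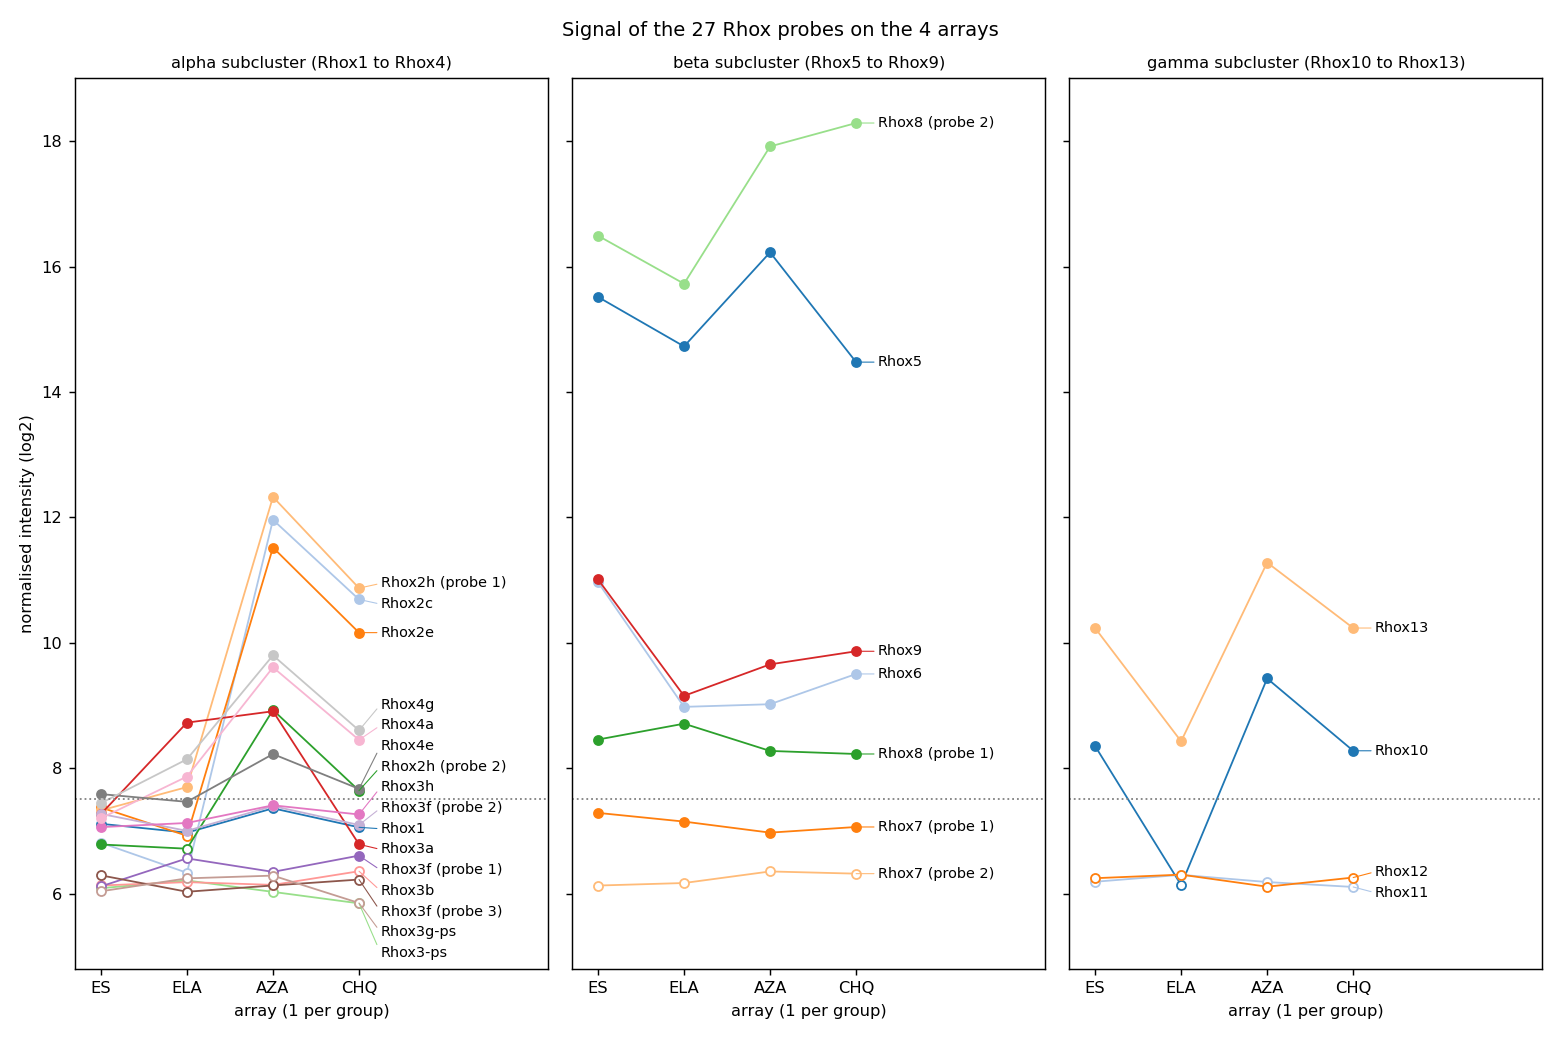
Normalised log2 intensity of each of the 27 Rhox probes on the 4 arrays, with 1 panel per subcluster and 1 line per probe. Filled points were well above background and open points were not, and the dotted line marks the mean level of 7.5 needed for a call. The 3 brightest Rhox2 probes reached 11.52 to 12.33 on AZA from at most 7.70 on ELA.

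In untreated cells 3 of the brighter genes of the cluster were lower in ELA than in ES. Rhox6 and Rhox9 of the beta subcluster and Rhox13 of the gamma subcluster were the lower ones, and 1 alpha probe, Rhox3a, was higher. In all, 3 of 11 callable probes were lower and 1 was higher, where 5.63% and 4.07% of the 25166 callable probes of the whole array were. The median difference over all 27 probes was -0.07, against -0.02 over all 55122 usable probes. With spike-in scaling 6 probes were lower and none higher, and with scaling to the 75th percentile or in the deposited value table there were 3 lower and none higher. Rhox3a was the call lost, at a difference of 0.89, 2.11 and 2.02 against 1.46, and in the last 2 its mean was under the level for a call.

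Rhox6, a placental and germ line member of the beta subcluster, was at 10.97 in ES, 8.98 in ELA, 9.02 in AZA and 9.50 in CHQ. Its neighbour Rhox9 was at 11.01, 9.15, 9.66 and 9.86. Both genes were thus highest in ES, and the 3 aggregate arrays lay together at the lower level: the difference of ELA from ES was -1.99 for Rhox6 and -1.86 for Rhox9. Neither was called in AZA or CHQ against ELA, with differences of 0.04 and 0.53 for Rhox6 and of 0.50 and 0.71 for Rhox9. Both remained lower in each drug than in ES, by -1.95 in AZA and -1.46 in CHQ for Rhox6, and by -1.35 and -1.15 for Rhox9.

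In AZA a set of Rhox genes lay far above untreated ELA, led by the Rhox2 copies of the alpha subcluster. Rhox4a, Rhox4g, Rhox5, Rhox10 and Rhox13 were also higher, and so was the GAA-repeat probe of Rhox8. Of the 15 callable Rhox probes 10 were higher and 0 lower, against 14.1% higher and 12.2% lower of 25330 callable probes on the array. The median difference over all 27 probes was 0.39, beside -0.03 over all usable probes. With spike-in scaling that median was -0.038, and the median of all probes -0.51. Under the 5 other scalings the count of higher probes was 8 to 10 and none was lower, while 5 were higher with 1 value per group of copies. When both arrays had to be above background, 6 of 11 callable probes were higher. Rhox2c, Rhox2e, Rhox10 and 1 of the 2 Rhox2h probes were not above background on ELA. These were callable only through their level on AZA, so a call of higher followed from the filter.

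In CHQ fewer of them were called higher. Against the same ELA array, which the AZA comparison shares, 5 of 13 callable probes were higher and 1 was lower, where the array as a whole had 14.2% and 12.7% of 25310 callable probes. The 5 were Rhox2c, Rhox2e, 1 of the 2 Rhox2h probes, Rhox13 and the GAA-repeat probe of Rhox8, and the lower one was Rhox3a. Rhox2c and Rhox2e were not above background on ELA. Both were callable only through their level on CHQ, so a call of higher followed from the filter. For 11 of the 13 callable probes both arrays were above background. The callable sets of the 2 drugs also differ: Rhox10, at least 2.90-fold higher in CHQ, was not callable here. The median over all 27 probes was 0.17, against -0.04 over all usable probes. With spike-in scaling that median was -0.47 (-0.66 over all probes), and with 1 value per group of copies 3 were called. Of the 5 other scalings, 2 kept 5 higher and 1 lower, and 3 gave 5 higher and 0 lower (normexp without offset) or 4 higher and 0 lower (75th percentile, and the value table of the authors). In these 3 Rhox3a was no longer called, its mean being under the level for a call, at differences of -2.64, -3.14 and -2.76.

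Set directly against each other on 1 slide, the callable probes that differed between AZA and CHQ by at least 1 all did so in 1 direction. In CHQ 10 of 15 callable Rhox probes were lower than in AZA and 0 were higher, while 4.65% of 25363 callable probes on the array were lower and 5.02% higher. By subcluster, 7 of 8 callable alpha probes, 1 of 5 beta probes and 2 of 2 gamma probes were lower. The median difference over the 27 probes was -0.30, against -0.02 over all usable probes. The count of lower probes was 9 or 10 in all 5 other scalings, with none higher, and 4 with 1 value per group of copies.

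**Figure D2:**
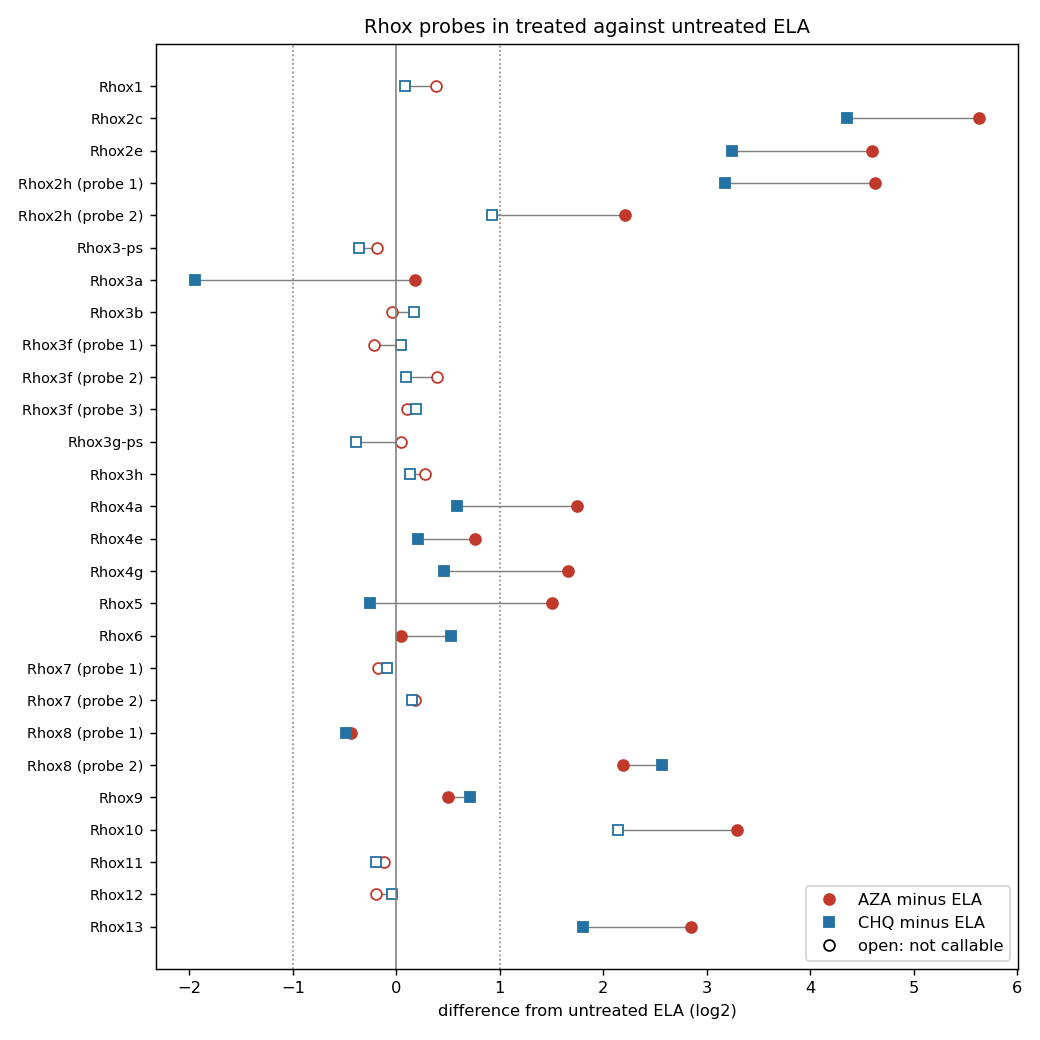
Difference of AZA (circles) and of CHQ (squares) from untreated ELA on the log2 scale, for each of the 27 Rhox probes in order of gene name. Filled symbols were callable and dotted lines mark the call threshold of 1. For the 4 Rhox2 probes, Rhox4a, Rhox4g, Rhox5, Rhox10 and Rhox13 the circle lies at least 1.04 to the right of the square.

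Rhox2 is 1 of the multiplied genes of the alpha subcluster, and its copies are homeobox genes of the placenta and testis. The Rhox2c probe read 6.81 in ES, 6.33 in ELA (not well above background), 11.96 in AZA and 10.69 in CHQ. The Rhox2e probe read 7.37, 6.92 (again not well above background), 11.52 and 10.16. Of the 2 probes named Rhox2h, the one at chrX:35083570-35083629, annotated to Rhox2a, Rhox2d, Rhox2g and Rhox2h, read 7.33, 7.70, 12.33 and 10.87. Thus these 3 probes were at 7.70 or less on ES and ELA, and 2 of them had no more than a bound on ELA.

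Against ELA the rise in AZA was at least 37.3-fold for Rhox2c and at least 24.2-fold for Rhox2e, taking ELA at the higher of the probe's own value and the lowest signal above background on that array (6.74). For the Rhox2h probe, which was measured on both arrays, it was 24.7-fold. In CHQ the rise was at least 15.4-fold for Rhox2c, at least 9.45-fold for Rhox2e and 9.02-fold for Rhox2h. These bounds hold for the main normalisation only, and for Rhox2e they equal the measured ratio. Under the 5 other scalings the log2 difference reached down to 5.19 for Rhox2c and 4.25 for Rhox2e in AZA. In CHQ it reached down to 3.82 and 2.80. CHQ was lower than AZA by -1.27, -1.36 and -1.45 on the log2 scale, respectively. The values of both drugs also exceeded those of ES, by 5.15, 4.15 and 5.00 in AZA and by 3.88, 2.79 and 3.55 in CHQ.

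The second Rhox2h probe, whose sequence is given above and which matches no other copy in the annotation, was dimmer: 6.78 in ES, 6.72 in ELA (not well above background), 8.93 in AZA and 7.64 in CHQ. Its rise in AZA was at least 4.55-fold, and in CHQ it was not callable (at least 1.87-fold). The order AZA above CHQ above both untreated arrays was the same as in the other Rhox2 probes, with a CHQ to AZA difference of -1.29. Since probes share copies, the 4 probes cannot say how many of the Rhox2 copies were higher.

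The Rhox4 copies, homeobox genes known from ES cells and placenta, showed a smaller change. The Rhox4a probe read 7.20 in ES, 7.87 in ELA, 9.61 in AZA and 8.45 in CHQ. The Rhox4g probe, 2 bases different from it, read 7.44, 8.14, 9.80 and 8.60. Both were higher in AZA than in ELA, by 1.74 and 1.66, and neither was called in CHQ against ELA (0.58 and 0.46). Both were lower in CHQ than in AZA, by -1.16 and -1.20. Against ES both were called in each drug, with 2.41 and 2.36 in AZA and 1.25 and 1.16 in CHQ. The probe named Rhox4e, which holds 5 TTTCGGC units in tandem and is the only probe on the array with 3 or more, read 7.59, 7.46, 8.22 and 7.67 and was called in no comparison.

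Rhox3, the third multiplied gene, was mostly too dim to compare. Of its 8 probes (Rhox3-ps and Rhox3g-ps included) only that of Rhox3a was callable in AZA or CHQ against ELA. Rhox3a read 7.27 in ES, 8.73 in ELA, 8.91 in AZA and 6.79 in CHQ. It was thus high in ELA and AZA and low in ES and CHQ: 1.46 higher in ELA than in ES, 0.18 from ELA in AZA, and -1.94 in CHQ against ELA and -2.12 against AZA. The probe is annotated to Rhox3a and Rhox3h, while the probe named Rhox3h, elsewhere in the transcript, read 7.06, 7.13, 7.41 and 7.26. Of the 3 Rhox3f probes 1 was well above background on all arrays (7.27, 7.00, 7.39 and 7.09), 1 on CHQ alone (6.61) and 1 on none. Rhox1, the first gene of the subcluster, read 7.11 in ES, 6.97 in ELA, 7.36 in AZA and 7.06 in CHQ and was not callable.

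Rhox5, also called Pem, is the founding member of the family and was its brightest gene apart from the GAA-repeat probe: 15.52 in ES, 14.73 in ELA, 16.23 in AZA and 14.48 in CHQ. AZA was the highest of the 4 arrays and CHQ the lowest. AZA exceeded ELA by 1.50, which is 2.83-fold, while CHQ differed from ELA by -0.25 and was not called. CHQ was below AZA by -1.75 (3.37-fold) and below ES by -1.04. The files give no genome position for this probe. Rhox7, by contrast, had 1 probe at 7.29, 7.15, 6.97 and 7.06 that was never callable and 1 that was not above background.

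The 2 Rhox8 probes did not behave alike. The probe at chrX:35227953-35228012 read 8.46 in ES, 8.71 in ELA, 8.27 in AZA and 8.23 in CHQ, with differences from ELA of -0.43 in AZA and -0.48 in CHQ. The GAA-repeat probe read 16.49, 15.73, 17.92 and 18.29, hence 2.19 and 2.56 above ELA, and it was the only Rhox probe called higher in AZA for which CHQ was not below AZA. A run of at least 8 GAA triplets is present in 31 further probes under 31 other gene names. On ELA these read 13.85 to 16.00 and on AZA 16.59 to 17.84. Their AZA minus ELA difference was 1.32 to 2.85 with a median of 2.16, and their CHQ minus ELA difference 1.64 to 3.61 with a median of 2.54. The Rhox8 probe, brighter than all 31 on AZA and CHQ, had differences inside their range, and whether it measured Rhox8 RNA was not tested. Without it, 9 Rhox probes were higher in AZA, and in CHQ 4 were higher and 1 lower.

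**Figure D3:**
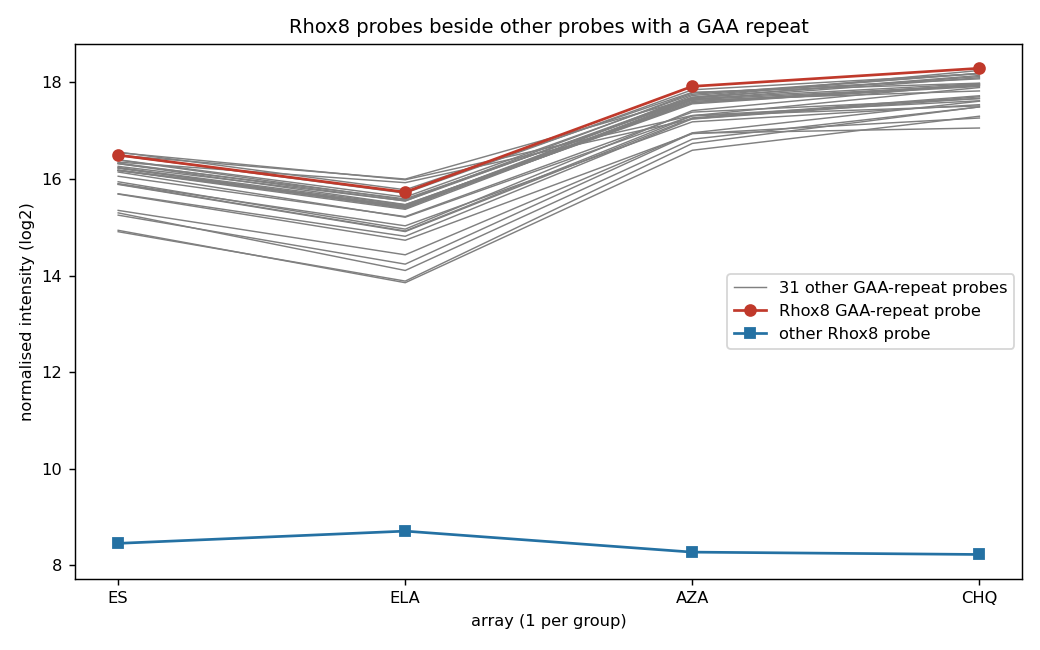
Normalised log2 intensity on the 4 arrays of the GAA-repeat probe of Rhox8 (red circles), the other Rhox8 probe (blue squares) and the 31 other probes with at least 8 GAA triplets in a row (grey lines). The repeat probes all lie above 13.8 and all rise from ELA to AZA and CHQ, while the other Rhox8 probe stays between 8.23 and 8.71.

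The gamma genes Rhox10 and Rhox13, both best known from male germ cells, were both low in ELA and higher in both drug arrays. Rhox13 read 10.23 in ES, 8.43 in ELA, 11.28 in AZA and 10.23 in CHQ. It fell by 1.81 from ES to ELA, was 2.85 above ELA in AZA (7.22-fold) and 1.81 above ELA in CHQ (3.50-fold). In CHQ its level thus equalled that in ES, and in AZA it was 1.04 above ES. Rhox10 read 8.35 in ES, 6.14 in ELA (not well above background), 9.43 in AZA and 8.28 in CHQ. It was at least 6.45-fold higher in AZA than in ELA. Its mean with ELA was below the level for a call in ES and in CHQ, where the bounds were at least 3.06-fold and at least 2.90-fold. CHQ was below AZA by -1.04 for Rhox13 and by -1.15 for Rhox10. Rhox11 and Rhox12, which lie between them, were not above background on any array.

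Set against ES cells, 10 of 15 callable Rhox probes were higher in AZA and 2 lower, where 10.7% and 9.3% of 25481 callable probes were. In CHQ 6 of 13 were higher and 3 lower, against 11.9% and 11.4% of 25441. The higher ones include the GAA-repeat probe of Rhox8, at 1.42 in AZA and 1.80 in CHQ. The 31 other GAA-repeat probes had medians of 1.37 and 1.75, and the other Rhox8 probe differed by -0.18 and -0.23. The lower ones were Rhox6 and Rhox9 in both drugs, and Rhox5 in CHQ. These comparisons also cross the slides.

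Along the chromosome the called probes were spread over most of the cluster. The probes higher in AZA ran from Rhox4a, 56.0 kb from the Rhox1 probe, to Rhox13 at 721 kb. In between lay dim Rhox3 and Rhox7 probes. Callable Rhox probes there that were not called were Rhox4e (0.76), Rhox6 (0.04), Rhox9 (0.50) and the Rhox8 probe without the GAA repeat (-0.43). There were 18 genes with an ordinary symbol within 500 kb of the cluster, each read by its brightest probe. Of all callable genes on the array 14.3% were higher and 11.4% lower in AZA than in ELA. Among the 18 neighbours none was higher and 1 was lower out of 13 callable, with a median of 0.10. The lower one was Sept6, a septin of the cytoskeleton (10.80 in ELA and 9.13 in AZA for its brighter probe). A second, dimmer probe of Lamp2, a lysosomal membrane protein, was higher, at 10.01 in ELA and 11.13 in AZA, while its brightest probe differed by 0.78. In CHQ 1 of these genes was higher and 1 lower of 13 callable, where 14.8% and 11.9% of all callable genes were. The higher neighbour was Cul4b, a scaffold of ubiquitin ligases, whose other bright probe did not differ (13.58 on both arrays). Between CHQ and AZA none of 14 was called, where 5.53% of callable genes were higher and 4.81% lower.

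Among other probes there were 3, picked after their values were seen, that resembled the members. Gm9, at chrX:34749380-34749439, just outside the Rhox1 probe, read 7.35, 6.60 (not well above background), 11.01 and 8.53, which is at least 19.3-fold higher in AZA than in ELA and at least 3.45-fold higher in CHQ. A probe that the array design names NAP103898-1, 73.2 kb inside the cluster, read 6.52 and 6.28 (both not well above background), 10.90 and 9.58, or at least 17.9-fold and at least 7.17-fold. Gm6310, which RefSeq lists as a Rhox2 pseudogene, read 7.39, 6.88 (not well above background), 8.25 and 8.17 and was the one of the 3 not called between CHQ and AZA (-0.08). None of the 3 carries a Rhox name in the files, and none was counted above.

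**Figure D4:**
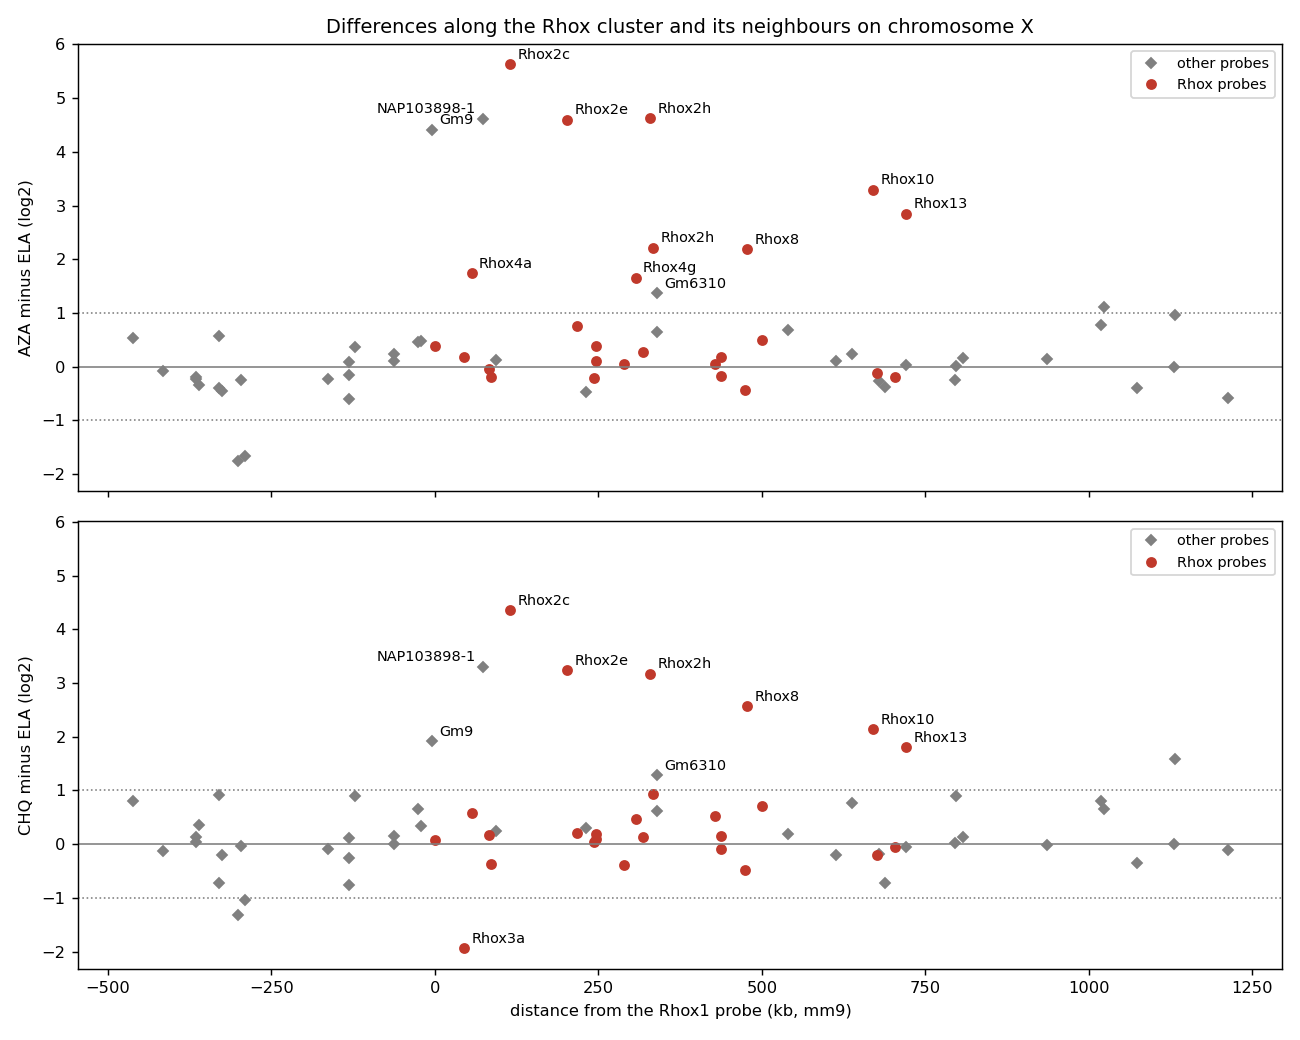
Difference of AZA (upper panel) and CHQ (lower panel) from untreated ELA on the log2 scale, against distance from the Rhox1 probe in kb, for the 26 Rhox probes with a position (red circles) and for other named probes in and within 500 kb of the cluster (grey diamonds). Dotted lines mark the threshold of 1. In AZA the values of 1.66 to 5.63 belong to Rhox probes, Gm9 and NAP103898-1.

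The promoters of the family are not rich in CG dinucleotides, the bases that DNA methyltransferases act on. RefSeq (assembly GRCm38.p6) gave the sequence around the start of 28 Rhox genes. Among them were 16 of the 20 RefSeq genes that the probes match by accession, leaving aside further copies in the annotation. Those without a sequence were Rhox6, Rhox7a, Rhox8 and Rhox9, so Rhox5 alone stands for the beta subcluster. Most of the 28 are copies of Rhox2, Rhox3 and Rhox4. In the 250 bases before the start the Rhox genes held 0 to 10 CG with a median of 4.5, where the median over 32851 promoters was 6. The highest count was that of the pseudogene Rhox11-ps2. Rhox1 had 0, Rhox2c 6, Rhox4g 7, Rhox5 4, Rhox10 8 and Rhox13 4. The Rhox2c and Rhox4g probes are each annotated to 4 genes, so their values cannot be assigned to 1 promoter. The promoters of 3 genes are printed with CG in capitals, 5′ to 3′ on the strand of the gene: Rhox2c (chrX:37453409-37453658, plus strand), Rhox4g (chrX:37651328-37651577, minus strand) and Rhox10 (chrX:38066225-38066474, plus strand).
Rhox2c: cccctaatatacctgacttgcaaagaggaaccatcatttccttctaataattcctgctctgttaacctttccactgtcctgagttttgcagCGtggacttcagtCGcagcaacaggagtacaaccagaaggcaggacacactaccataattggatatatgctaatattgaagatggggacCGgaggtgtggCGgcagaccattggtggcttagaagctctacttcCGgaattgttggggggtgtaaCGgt
Rhox4g: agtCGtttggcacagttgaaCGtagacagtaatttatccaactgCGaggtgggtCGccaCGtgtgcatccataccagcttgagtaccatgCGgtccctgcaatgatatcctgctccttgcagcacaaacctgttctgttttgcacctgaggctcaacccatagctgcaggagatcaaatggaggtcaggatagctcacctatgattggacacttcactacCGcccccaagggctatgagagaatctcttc
Rhox10: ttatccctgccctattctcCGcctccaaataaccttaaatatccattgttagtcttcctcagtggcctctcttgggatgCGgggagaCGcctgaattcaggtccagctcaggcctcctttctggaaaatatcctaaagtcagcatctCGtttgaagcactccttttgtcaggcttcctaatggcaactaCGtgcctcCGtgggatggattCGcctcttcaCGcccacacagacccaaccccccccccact
The E-box CACGTG, which reads the same on both strands, occurs in the 300-base window of 5 of the 28 genes (17.9%) and in 7.15% of all promoters. The 5 are all near-identical Rhox4 copies. The sequence GCGGGA, part of the site of E2F factors and searched on both strands, occurs in 1 of 28 (3.57%), the pseudogene Rhox11-ps2, and in 20.0% of all promoters. The letters of a motif describe the window and no binding was measured.

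The list of genes of DNA methylation and of related silencing factors was detected in full on all arrays. Of its 19 genes 4 were higher and 3 lower in AZA than in ELA, and 5 were higher and 2 lower in CHQ. Of all callable genes (1 probe each) 14.3% and 11.4% were higher and lower in AZA and 14.8% and 11.9% in CHQ. Dnmt3l, the cofactor of the de novo methyltransferases, was at 15.96 in ES, 13.22 in ELA, 16.33 in AZA and 15.38 in CHQ. Tet2, which oxidises methylcytosine, was at 12.07, 9.05, 11.68 and 11.55. Both were low in ELA alone. Dnmt3b, a de novo methyltransferase that acts on the Rhox cluster in the embryo, was highest in ELA, at 17.44, 18.49, 16.78 and 17.44. Zdbf2, an imprinted gene, was at 10.02, 9.92, 8.24 and 8.98, and its other probe differed from ELA by -0.90 in AZA and -0.43 in CHQ. Between CHQ and AZA 1 of the 19 was called, higher in CHQ, near the 5.53% of all callable genes.

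Many, but not all, germline genes known to be silenced by promoter methylation were higher in both drug arrays. Of 22 such genes, 12 of 17 callable were higher and 2 lower in AZA, and 11 of 18 were higher and 1 lower in CHQ. Of all callable genes 14.3% and 11.4% were in AZA, and 14.8% and 11.9% in CHQ. The medians of the list were 1.36 and 1.74 beside -0.04 over all genes in each comparison. In ELA against ES 1 of 17 callable was higher and 7 were lower, beside 4.45% and 5.59% of callable genes. Between the drugs 2 of 19 callable were higher and 3 lower in CHQ, with a median of 0.35, where 5.53% and 4.81% of all callable genes were. Rpl10l, a testis ribosomal protein, was at 12.77 in ES, 11.06 in ELA, 15.77 in AZA and 15.28 in CHQ. Tuba3a, a testis tubulin, was at 12.11, 11.95, 15.07 and 12.89. Dazl, an RNA-binding protein of germ cells, was at 7.75, 7.40, 10.53 and 9.30, and Fkbp6, a meiotic chaperone, at 7.97, 7.03, 10.25 and 9.22. The last 3 were lower in CHQ than in AZA, by -2.19, -1.22 and -1.03. Those called higher in CHQ than in AZA, named after their values were seen, were Ddx4, a germ cell helicase (11.41, 10.52, 9.32 and 11.01), and Mael, a factor of the piRNA pathway (12.73, 11.80, 11.35 and 12.43). The pair called lower in AZA than in ELA was Ddx4 (-1.21) and Sycp3, a protein of meiotic chromosomes (-1.08). Whether the list and the Rhox probes differ was not tested. Of 33 other homeobox genes of the PRD type, 1 was higher and 2 lower of 12 callable in each drug, with medians of -0.15 and -0.24. The shares of all callable genes were 14.3% and 11.4% in AZA and 14.8% and 11.9% in CHQ. Between CHQ and AZA 2 of 9 callable were lower and none was higher, Esx1, a regulator of the placenta, by -1.15 and, named after its values were seen, Obox6, a homeobox gene of the oocyte (6.53, 6.10, 8.79 and 6.71, not well above background on ES and ELA), by -2.09. Hesx1, a regulator of the forebrain, was under the level for a call in that pair, with a difference of -1.23.

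Since RNA of whole cultures was measured, more cells that express a gene and more RNA per cell cannot be told apart. Markers of other cell types also differed between the arrays, some up and some down. Their part in the Rhox values was not tested. Of all callable genes 14.3% were higher and 11.4% lower in AZA than in ELA, and 14.8% and 11.9% in CHQ. Some of the counts that follow are near these shares. Of 20 trophoblast markers, 5 were higher and 5 lower of 14 callable in AZA, and 5 and 5 of 15 in CHQ, 17, 15, 16 and 18 of them were above background on ES, ELA, AZA and CHQ, and the list's median level was 9.14, 8.76, 8.52 and 8.16. Those with the largest values by the naming rule were all higher: Esrrb, also an ES cell marker (3.90 in AZA and 1.89 in CHQ against ELA), Ascl2 (2.64 and 2.34), Tfap2c (2.11 and 3.44) and Gcm1 (2.23 and 2.53), the last read by 1 of the GAA-repeat probes above (its 3 other probes by 0.45 to 2.38 in AZA and 1.24 to 2.86 in CHQ). Lower markers, named after their values were seen, were the keratins Krt8 (-1.80 and -1.20, its other probe by more in both) and Krt18 (-1.49 and -2.23), the placental hormone Prl3b1 (-1.49 and -1.30) and the imprinted Peg10 (-1.21 and -1.35, its other probe -0.98 and -0.62). Of 20 markers of primitive and extraembryonic endoderm, 3 were higher and 2 lower of 12 in AZA and 4 and 3 of 14 in CHQ, with 13, 11, 19 and 18 above background, at median levels of 7.32, 7.60, 7.91 and 8.84. Cubn differed from ELA by 2.12 in AZA and 1.75 in CHQ (its other probe by -0.05 and 0.11), Apoe by 1.58 and 0.82, Foxa2 by -1.81 and -1.01 (its other probe by -0.71 and -0.39), and Dab2 by -1.47 and -1.34. Larger values, seen afterwards, were those of markers not well above background on ES and ELA: Hnf4a read 6.47, 6.51, 10.82 and 9.11, Gata6 6.41, 6.69, 8.06 and 9.89, Sox17 6.37, 6.76, 7.76 and 9.51 (its other probe differed from ELA by 0.21 and 1.38), and Afp 6.27, 6.05, 6.88 and 8.56. Against ELA, Hnf4a was called higher in both drugs and Gata6 and Sox17 in CHQ, while Gata6 and Sox17 in AZA and Afp in both were under the level for a call. Of 11 germ cell markers, 4 were higher and 3 lower in AZA and 3 and 2 in CHQ, at median levels of 11.19, 10.36, 10.74 and 10.34. Ifitm3 differed from ELA by 2.32 in AZA and 0.82 in CHQ, and Dppa3 by -0.46 and -3.43. The counts within a slide follow, higher before lower. In CHQ against AZA they were 1 and 2 of 13 callable trophoblast markers, 4 and 2 of 13 endoderm markers and 3 and 4 of 11 germ cell markers. Of all callable genes 5.53% and 4.81% were called. In ELA against ES the counts were 0 and 4 of 14, 1 and 0 of 10, and 1 and 4 of 11, beside 4.45% and 5.59%.

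Markers of ES cells and epiblast also differed between the arrays, and their part was likewise not tested. Of 12, 6 were lower and 2 higher in ELA than in ES, 6 were higher and 3 lower in AZA than in ELA, and 5 were higher and 2 lower in CHQ. Of all callable genes 4.45% were higher and 5.59% lower in ELA than in ES, 14.3% and 11.4% in AZA, and 14.8% and 11.9% in CHQ. In CHQ against AZA 2 of the 12 were higher and 3 lower, beside 5.53% and 4.81% of callable genes. The list's median level was 14.94, 13.38, 14.72 and 13.77. Nr0b1, a nuclear receptor of naive cells, was at 13.13 in ES, 9.23 in ELA, 13.69 in AZA and 12.57 in CHQ. Klf4 was at 12.54, 9.50, 13.58 and 13.00, Zfp42 at 15.80, 11.99, 15.72 and 15.04, and Esrrb at 14.93, 12.08, 15.98 and 13.97. Other members, named after their values were seen, had other patterns. Fgf5, a marker of the epiblast, was at 11.61, 14.47, 11.94 and 13.33, and Pou3f1, another, at 14.36, 15.19, 13.64 and 15.48. Nanog, a pluripotency factor, was at 15.03, 12.53, 15.39 and 12.54, and its other probe differed from ELA by -1.55 in AZA and -1.01 in CHQ.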

How the data were processed

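Total RNA of 4 groups was labelled with Cy3 and hybridised to Agilent SurePrint G3 mouse arrays. Per the file headers, the authors read the scans with Feature Extraction 10.7.3.1 (the submitters' processing notes name 9.1); the deposited intensity values (spot mean and local background median, or the processed signal) are not normalised between arrays. The deposited log2 table was background-corrected and quantile-normalised by the authors with limma. Its correlation with normexp values made here without an offset was r = 0.999 for all 4 arrays.

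With limma 3.58.1 in R 4.3.3, normexp (offset 50) was applied to the mean intensity with the local background median, and the 4 arrays were quantile-normalised. Control and outlier spots were left out and spots of a probe averaged on the log2 scale, which left 55122 of 55681 probes. Of all probes 26582 matched a RefSeq symbol by accession, and 25 of 27 Rhox probes did. With 1 array per group no test was run. A probe not well above background on the dimmer array is given as a bound, which holds for this normalisation only. Tables were made with Python 3.11.15, pandas 2.3.3 and numpy 2.4.6.

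Every Rhox gene with a probe above background is given on all 4 arrays. For each other list the brightest probe of a gene was used, and up to 4 genes above background in ELA, AZA and CHQ with the largest difference between AZA and ELA or CHQ and AZA are named. Some genes that this rule picks are not reported here. Neighbours are genes with an ordinary symbol within 500 kb. The members and lists were chosen with earlier results of these data known. Alternatives were normexp with offset 0, no background correction, the 75th percentile of the processed signal, E1A spike-in scaling with 7 probes, the authors' value table, 1 value per gene or per group of copies, RefSeq membership and 2 other filters. Leaving out the GAA-repeat probe of Rhox8 was chosen after seeing the data.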

Additional observations from a re-analysis of the deposited data

How the results depend on the processing

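No paired analysis was possible because each group had 1 array, and for the same reason no replicate could be left out. The called differences kept their direction: over 10 probes in AZA minus ELA, 6 in CHQ minus ELA, 10 in CHQ minus AZA and 4 in ELA minus ES, 0 of 50, 30, 50 and 20 values under the 5 other scalings changed sign, and 1 value, of ELA minus ES, fell under 1. The medians over the 27 probes moved more, and the cause was not tested. With the 75th percentile they were 0.38 (ELA minus ES), 0.62 (AZA minus ELA) and -0.52 (CHQ minus AZA), where the median of all probes was 0.10, -0.47 and -0.023. With spike-in scaling they were -0.36 (ELA minus ES), -0.038 (AZA minus ELA) and -0.47 (CHQ minus ELA), where the median of all probes moved to -0.42, -0.51 and -0.66. The CHQ minus ELA median was 0.48 with offset 0, 0.43 in the authors' table and 0.42 with 1 value per group of copies. Counting each group of copies once, by construction fewer values, left 5 called in AZA minus ELA, 3 in CHQ minus ELA and 4 in CHQ minus AZA. Requiring a signal above background on both arrays left 6 of 11 callable probes in AZA minus ELA. Signal over background limits the Rhox2 and Rhox10 folds against ELA: the Rhox2c difference in AZA was 5.19 to 7.98 over the 5 other scalings. Under the same scalings it was 4.25 to 5.87 for Rhox2e, 4.405 to 5.341 for the brighter Rhox2h probe and 2.88 to 5.86 for Rhox10.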
